A study of Mus musculus with 18 samples.

Results

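The comparison described here is a difference of differences. It sets the response of Pcdh19 knockout (KO) neurosphere cultures to differentiation, day 4 minus day 0, against the same response in wild type (WT) cultures, and so asks whether the genes that move when neural progenitors differentiate move by another amount when Pcdh19 is missing. The members were the arrays whose titles name them as knockout or wild type, 12 of the 18 in the series, with 3 arrays in each of 4 groups. The groups were KO at day 4, KO at day 0, WT at day 4 and WT at day 0. The other 6 arrays are labelled as mosaic cultures of mixed KO and WT cells. Their responses are given beside some values, and they also enter the estimate of spread and the choice of 1 probe set per gene.

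Neurospheres are free-floating clusters of neural stem and progenitor cells grown in culture, and on differentiation such cells leave the cell cycle and give rise to oligodendrocytes, astrocytes and neurons. Pcdh19 encodes a delta-protocadherin, a calcium-dependent adhesion protein of the cell surface that is known from the developing brain, and the gene lies on the X chromosome. Variants of the human gene cause an epilepsy that mainly affects females whose tissues mix mutant and normal cells. Total RNA was hybridised to Affymetrix mouse gene arrays, 1 array per sample. The sources used here do not give the strain, the age of the animals or the way the knockout was made. The replicates are described as technical, so the p-values below measure only the spread between these samples. In such bulk samples, fewer cells of a type and less RNA per cell cannot be told apart.

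Pearson correlations between arrays of one group lay between 0.981 and 0.986 over all probe sets. Those between arrays of different groups lay between 0.955 and 0.987, so the ranges overlapped. The median log2 signal per array lay at 4.89 to 4.93 in KO at day 4, 4.91 to 4.94 in KO at day 0, 4.95 to 4.99 in WT at day 4 and 4.90 to 4.96 in WT at day 0. The medians of KO at day 4 lay below those of WT at day 4 without overlap. Some markers of the labelled cell type were among the brightest genes. The stem cell gene Sox2 was never below the 98.7th percentile of an array, and the oligodendrocyte lineage factor Olig2 never below the 99.4th. Others lay lower. The stem cell gene Nes went down to the 77.6th percentile and the progenitor gene Sox10 to the 78.9th, and the progenitor gene Cspg4 lay between the 73.3rd and the 80.2nd. The labels call all samples female, and the sex-linked probe sets went against this on all 18 arrays. The Y-linked genes Eif2s3y, Kdm5d and Uty lay between the 77.8th and the 94.1st percentile of their arrays, while Xist, the RNA that coats the inactive X chromosome, lay between the 12.5th and the 31.2nd. All groups shared this pattern, and whether the Y-linked probe sets also bind other transcripts was not tested.

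Pcdh19 itself was measured at 5.70, 5.53 and 5.86 in KO at day 4, 5.39, 5.46 and 5.68 in KO at day 0, 6.90, 6.98 and 6.81 in WT at day 4, and 6.85, 6.83 and 6.66 in WT at day 0 (log2 signal). The KO arrays lay below the WT arrays at both days with no overlap. In the cultures labelled mosaic it read 6.54, 7.09 and 5.52 at day 4 and 6.03, 6.31 and 5.65 at day 0. Mosaic replicate 3 lay below every WT array at both days, just under the lowest KO array at day 4 and among the KO arrays at day 0, and mosaic replicate 2 at day 4 lay above every WT array, so the mosaic arrays did not stand at one level between the genotypes. The standard deviation was 0.79 in mosaic at day 4 and 0.33 in mosaic at day 0, against 0.17 in KO at day 4, 0.15 in KO at day 0, 0.09 in WT at day 4 and 0.11 in WT at day 0 (n = 3 each).

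KO minus WT was -1.20 at day 4 and -1.27 at day 0 (log2). With the spread taken from the 12 KO and WT arrays alone, the standard error was 0.11 at each day, and Pcdh19 was called at both (limma, Benjamini-Hochberg adjusted p = 0.00217 at day 4 and 0.00116 at day 0). With the spread of all 18 arrays the standard error was 0.26, and neither difference passed (adjusted p = 0.195 at day 4 and 0.855 at day 0). Where the probe set lies relative to the deleted part of the gene is not given in the sources used here. The response of Pcdh19 to differentiation was 0.19 in KO and 0.12 in WT. The difference of responses was 0.07, with a 95% interval of -0.27 to 0.41 from the 12 arrays (limma adjusted p = 0.911) and of -0.72 to 0.86 from the 18 (adjusted p = 0.971).

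Differentiation moved many genes in both genotypes. A gene is called here when its limma test has a Benjamini-Hochberg adjusted p under 0.05 over the 19016 genes tested. In KO cultures 2846 genes rose (15% of those tested) and 2365 fell (12.4%). In WT cultures 3280 rose (17.2%) and 3106 fell (16.3%). The counts of risen and fallen members given for gene lists below are to be read beside these shares. After quantile normalization the KO split was 3101 risen and 2274 fallen, and the WT split was 4091 risen and 2556 fallen. With array medians subtracted, the KO split was 3018 risen and 2072 fallen, and the WT split was 2651 risen and 3285 fallen. The same sign was called in both for 3958 genes (20.8% of those tested), of which 1920 rose and 2038 fell. These were 76.0% of the KO calls and 62.0% of the WT calls. A called response of at least 2-fold was found in either genotype for 943 genes and in both for 641. Of the 943, 940 had estimated responses of the same sign, and the responses of 878 (93.1%) lay within 1.5-fold of each other. The other 65 were past 1.5-fold apart, a larger share than the 613 of all 19016 genes tested (3.22%). The median absolute difference over the 943 was 0.20 and the largest was 1.69 (log2).

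**Figure D1:**
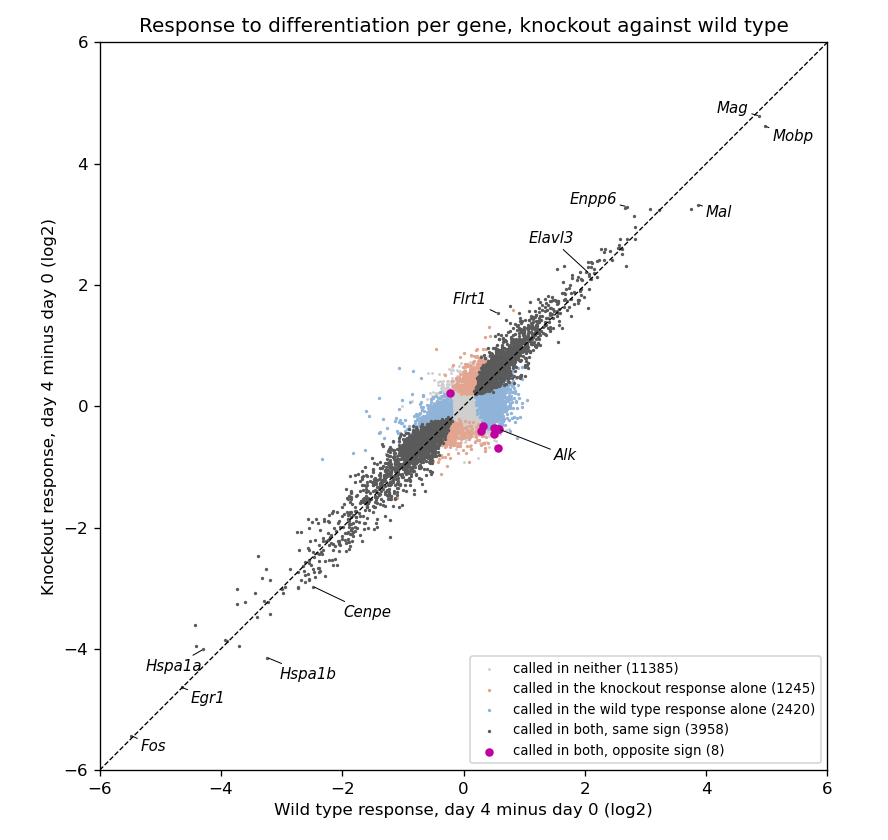
Response of each of the 19016 genes to differentiation, KO on the vertical axis and WT on the horizontal axis, both as day 4 minus day 0 on the log2 scale. Each point is a gene, the dashed line marks equal responses, and colours give the genotypes in which the gene was called. Fos at the lower left and Mag at the upper right lie close to the line, and the 8 genes called with opposite signs lie near the centre.

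The gene with the deepest fall was Fos, the immediate early transcription factor that growth factors switch on within minutes. It read 5.14, 5.0 and 5.13 in KO at day 4, 10.55, 10.21 and 10.80 in KO at day 0, 5.14, 5.0 and 5.10 in WT at day 4, and 10.46, 10.65 and 10.55 in WT at day 0. The days were separated by about 5 log2 units in both genotypes, and the genotypes overlapped at both days. Fos fell 43.2-fold in KO and 44.5-fold in WT, and the difference of responses was 0.04 (95% interval -0.32 to 0.40). Egr1, another immediate early transcription factor, fell 24.9-fold in KO and 25-fold in WT, with a difference of 0.01 (95% interval -0.42 to 0.44). Of 26 immediate early genes tested, 22 fell in both genotypes and the median difference was 0.03, beside 0.01 over all genes.

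The upstream sequence of Fos is shown because this gene sets the lower end of both responses, and that of Alk because it is 1 of the few genes called with opposite signs in the 2 genotypes, described further on. Both are the 250 bases before the annotated start, from RefSeq on build GRCm38.p6, read 5′ to 3′ on the strand of the gene, at chr12:85473640-85473889 on the plus strand for Fos and chr17:72604308-72604557 on the minus strand for Alk. Capitals mark matches to 4 short motifs searched on both strands, the cyclic AMP response element core TGACGT, the TATA box TATAAA, the GC box GGGCGG (which reads CCGCCC on the other strand) and the CCAAT box CCAAT.
Fos: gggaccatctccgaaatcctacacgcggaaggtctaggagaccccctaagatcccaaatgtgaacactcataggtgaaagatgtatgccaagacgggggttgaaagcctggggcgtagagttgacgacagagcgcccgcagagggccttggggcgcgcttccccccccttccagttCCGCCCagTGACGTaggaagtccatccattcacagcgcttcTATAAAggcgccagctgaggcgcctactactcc
Alk: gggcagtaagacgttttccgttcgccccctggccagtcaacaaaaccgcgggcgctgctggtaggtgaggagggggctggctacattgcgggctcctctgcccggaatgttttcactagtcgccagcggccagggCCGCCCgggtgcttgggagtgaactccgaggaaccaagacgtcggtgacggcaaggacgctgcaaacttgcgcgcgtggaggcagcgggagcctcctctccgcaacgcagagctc
The Fos stretch held TGACGT 66 to 61 bases before the start and TATAAA 33 to 28 bases before it, and the GC box on the opposite strand 74 to 69 bases before it. The Alk stretch held only the GC box, on the opposite strand, 115 to 110 bases before the start. Among 32851 mouse promoter windows of the same length, 6.47% held TGACGT, 12.4% TATAAA, 32.7% GGGCGG and 33.8% CCAAT. No 2 of the motifs overlapped in these stretches.

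Myelin genes marked the upper end. Mobp, a structural protein of compact myelin, read 9.92, 9.72 and 10.42 in KO at day 4, 5.70, 5.12 and 5.38 in KO at day 0, 10.64, 10.36 and 9.72 in WT at day 4, and 5.47, 5.23 and 5.09 in WT at day 0. Again the days separated without overlap and the genotypes did not. Mobp rose 24.6-fold in KO and 31.4-fold in WT, and the difference of responses was -0.35 (95% interval -1.03 to 0.33). Mag, the myelin-associated glycoprotein, rose 27.6-fold in KO and 29.3-fold in WT (difference -0.09, 95% interval -1.12 to 0.95). Mal, a myelin proteolipid, rose by 3.33 in KO and by 3.87 in WT (log2), with a difference of -0.55 (95% interval -1.18 to 0.09). Enpp6, a phosphodiesterase of newly forming oligodendrocytes, rose by 3.29 in KO and by 2.69 in WT, with a difference of 0.60 (95% interval -0.45 to 1.64). The interval reached past 2-fold on at least 1 side for each of Mobp, Mag, Mal and Enpp6. Of 22 myelin and oligodendrocyte genes tested, 20 rose in both genotypes, 1 fell in KO and 1 in WT, and the median difference was -0.01.

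**Figure D2:**
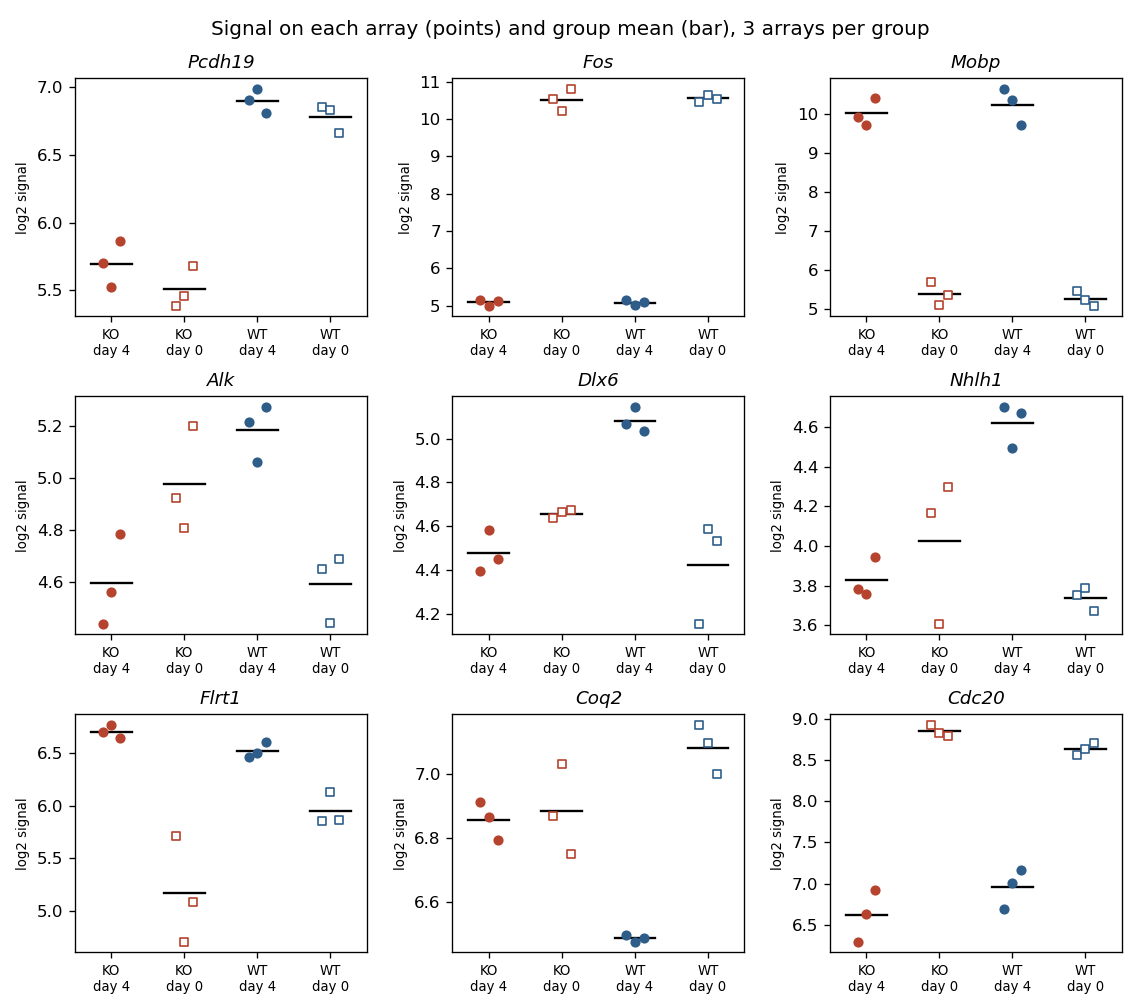
Log2 signal on each array for 9 genes, with KO at day 4, KO at day 0, WT at day 4 and WT at day 0 from left to right. Points are arrays and bars are means of 3 arrays; the vertical axes differ in range between genes. Fos and Mobp separate the days in both genotypes alike, whereas Alk, Dlx6 and Nhlh1 have their highest mean in WT at day 4.

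No gene passed the test of the difference itself. The call rate was 0% (0 of 19016), with a smallest limma adjusted p of 0.066, for the predicted gene Gm21370, or 0.192 where the 12 KO and WT arrays alone set the spread, which also gave 0 calls. At an unadjusted p under 0.05 there were 1809 genes, 9.51% of those tested, with the KO response above the WT response for 722 (3.8%) and below it for 1087 (5.72%). Direct comparison of the genotypes also called 0 genes at day 4 and 0 at day 0 (limma). At an unadjusted p under 0.05 there were 2411 at day 4 and 686 at day 0, of 19016 tested. The day 0 count was lower than evenly spread p-values would give, and the day 4 count higher. With the 12 arrays alone 1 gene was called at each day, Pcdh19. The precision sets what could be seen: the median standard error of a difference of responses was 0.18 and the median 95% half-width was 0.38 (log2). Estimated differences were past 1.5-fold for 613 genes (3.22%) and past 2-fold for 37.

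The count of 0 was close to its threshold. Leaving out KO day 0 replicate 1 gave 2 calls, Flrt1 (adjusted p = 0.0164) and Gm21370 (0.0269), and leaving out any other array gave 0. A block for replicate number within genotype gave 1 call, Klk1b21 (limma adjusted p = 0.0388). Quantile normalization, cyclic loess normalization (chosen after seeing the data) and a stricter filter each gave 1 call, Gm21370 each time, and the smallest of these adjusted p-values was 0.0299 (limma). This gene read 5.39, 5.48 and 5.55 in KO at day 4, 5.71, 6.03 and 5.80 in KO at day 0, 6.27, 6.11 and 6.07 in WT at day 4, and 5.69, 5.44 and 5.59 in WT at day 0. KO arrays lay below WT arrays at day 4 and above them at day 0, with no overlap at either day. The difference of responses was -0.95 (95% interval -1.24 to -0.66), and what Gm21370 encodes is not annotated in the sources used here.

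Over the 7631 genes called in either genotype, KO response regressed on WT response, with the line forced through 0, had a slope of 0.897. Pearson's r across these genes was 0.921. Both are given as a description because genes are not independent replicates. A fit that allows error in both responses, also through 0, gave a slope of 0.972. A gene called in 1 genotype alone is not thereby shown to differ: of 1245 genes called in KO alone, 90% had the same sign in WT and 21.4% had an unadjusted p under 0.05 in the difference. Of 2420 called in WT alone, 80.1% had the same sign in KO and 32.6% had an unadjusted p under 0.05, beside 9.51% over all genes.

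Only 8 genes were called in both genotypes with opposite signs, and since the test of the difference called none of them, they are described by their values. In 7 the KO response was negative and the WT response positive (Alk, Aoc1, Chrdl2, Nek10, AY702102, 1810064F22Rik and Gm21370), and in Cluap1 the KO response was positive and the WT response negative. Alk, a receptor tyrosine kinase of the developing nervous system, read 4.44, 4.56 and 4.78 in KO at day 4, 4.92, 4.81 and 5.20 in KO at day 0, 5.22, 5.06 and 5.27 in WT at day 4, and 4.65, 4.44 and 4.69 in WT at day 0. The arrays of the genotypes again changed places between the days and did not overlap. Alk fell by 0.38 in KO (limma adjusted p = 0.0293) and rose by 0.59 in WT (0.00153), a difference of -0.97 (95% interval -1.34 to -0.60, adjusted p = 0.233). The mosaic response of Alk was 0.05. Chrdl2, a secreted BMP antagonist, showed responses of -0.40 in KO and 0.29 in WT. Aoc1, the diamine oxidase that degrades histamine, showed -0.36 in KO and 0.51 in WT, and Nek10, a NIMA-related kinase, -0.33 in KO and 0.32 in WT. Cluap1, a component of intraflagellar transport in cilia, rose by 0.22 in KO and fell by 0.22 in WT, the smallest pair among the 8. Alk, Aoc1, Chrdl2, Nek10, AY702102 and 1810064F22Rik all lay below the 30th percentile of mean signal over the genes tested.

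The 12 genes with the smallest p among those whose KO response lay below the WT response were Dlx6, Alk, Lrrc25, Lrrc17, Klk1b21, Hcrtr1, Cd3d, Lrg1, Aoc1, Aire, Ifi35 and Col1a2. Their differences ran from -1.18 to -0.57, with unadjusted p from 3.38e-05 to 2.21e-04 and limma adjusted p of 0.233 throughout. Since they were picked by this p, the counts over them describe them and support nothing. Dlx6, a homeobox transcription factor of forebrain interneuron development, read 4.40, 4.58 and 4.45 in KO at day 4, 4.64, 4.66 and 4.67 in KO at day 0, 5.07, 5.14 and 5.04 in WT at day 4, and 4.16, 4.59 and 4.53 in WT at day 0. The WT day 4 arrays stood above all the others. Dlx6 rose by 0.66 in WT (adjusted p = 1.54e-04), while its KO response was -0.18 (adjusted p = 0.236), and the difference was -0.84 (95% interval -1.15 to -0.52).

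All 12 rose in WT, 2 fell in KO (Alk and Aoc1), and KO day 4 lay below WT day 4 without overlap in 12 of 12. At day 0 KO lay above WT without overlap in 10 of 12. Genes picked by this p tend to be separated in this way, and the share over all genes was not computed, so nothing is read from these counts. Their products are of many kinds: Hcrtr1 is an orexin receptor, Cd3d a chain of the T cell receptor complex, Aire a transcription factor of the thymus, Ifi35 an interferon-induced protein, Lrg1 a secreted leucine-rich glycoprotein and Col1a2 a chain of type I collagen. The largest difference was that of Klk1b21, a kallikrein, at -1.18 (95% interval -1.67 to -0.69), and kallikrein genes of its cluster are close copies whose transcripts an array may not separate. All 12 lay below the median signal of the genes tested, between the 2.30th and the 45.1st percentile. The response of the arrays labelled mosaic, whose Pcdh19 levels ranged from the KO to the WT range and above it, lay between those of KO and WT in 11 of the 12 and was called in 0. The genes were picked for the distance between KO and WT, so nothing is read from this count.

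Among genes whose KO response lay above the WT response, the 12 with the smallest p were Gid8, Coq2, Tbrg3, Akap17b, P3h2, Actr6, Flrt1, Tes, Lrrc7, Madd, Smug1 and Cluap1. Their differences ran from 0.44 to 1.17, with unadjusted p from 2.16e-04 to 0.00133 and limma adjusted p from 0.233 to 0.303. Flrt1, a leucine-rich repeat protein of cell adhesion, read 6.70, 6.76 and 6.64 in KO at day 4, 5.71, 4.71 and 5.09 in KO at day 0, 6.46, 6.50 and 6.61 in WT at day 4, and 5.86, 6.13 and 5.86 in WT at day 0. The wider gap between genotypes was at day 0, where KO was lower and its arrays were widely spread. Flrt1 rose 2.89-fold in KO and 1.48-fold in WT, and the difference was 0.96 (95% interval 0.46 to 1.46, adjusted p = 0.272, or 0.0164 without KO day 0 replicate 1, which read highest of the 3).

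Coq2, an enzyme of coenzyme Q synthesis, showed the other form. It read 6.91, 6.86 and 6.79 in KO at day 4, 6.87, 7.03 and 6.75 in KO at day 0, 6.50, 6.48 and 6.49 in WT at day 4, and 7.15, 7.10 and 7.0 in WT at day 0. It fell by 0.59 in WT, and the KO response was -0.03, with overlapping days. A fall in WT and a KO response that was not called were also seen in Akap17b, P3h2, Lrrc7, Smug1 and Tbrg3. Tbrg3 was not flat in KO: its mean was 5.83 at day 4 and 5.36 at day 0, without overlap. Lrrc7, a scaffold protein of the postsynaptic density, had responses of -0.26 in KO and -1.06 in WT, and P3h2, a collagen prolyl 3-hydroxylase, -0.11 in KO and -0.72 in WT. Gid8, a subunit of the CTLH ubiquitin ligase, rose by 0.58 in KO against a WT response of 0.10. Madd, which activates Rab3 GTPases, rose by 0.42 in KO against -0.09 in WT, and Tes, a LIM protein of focal adhesions, rose by 1.14 in KO against 0.36 in WT. Of the 12, 8 fell and 1 rose in WT, and 5 rose and 1 fell in KO. The mosaic response lay between those of KO and WT in 10 of the 12, for genes picked in the same way.

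**Figure D3:**
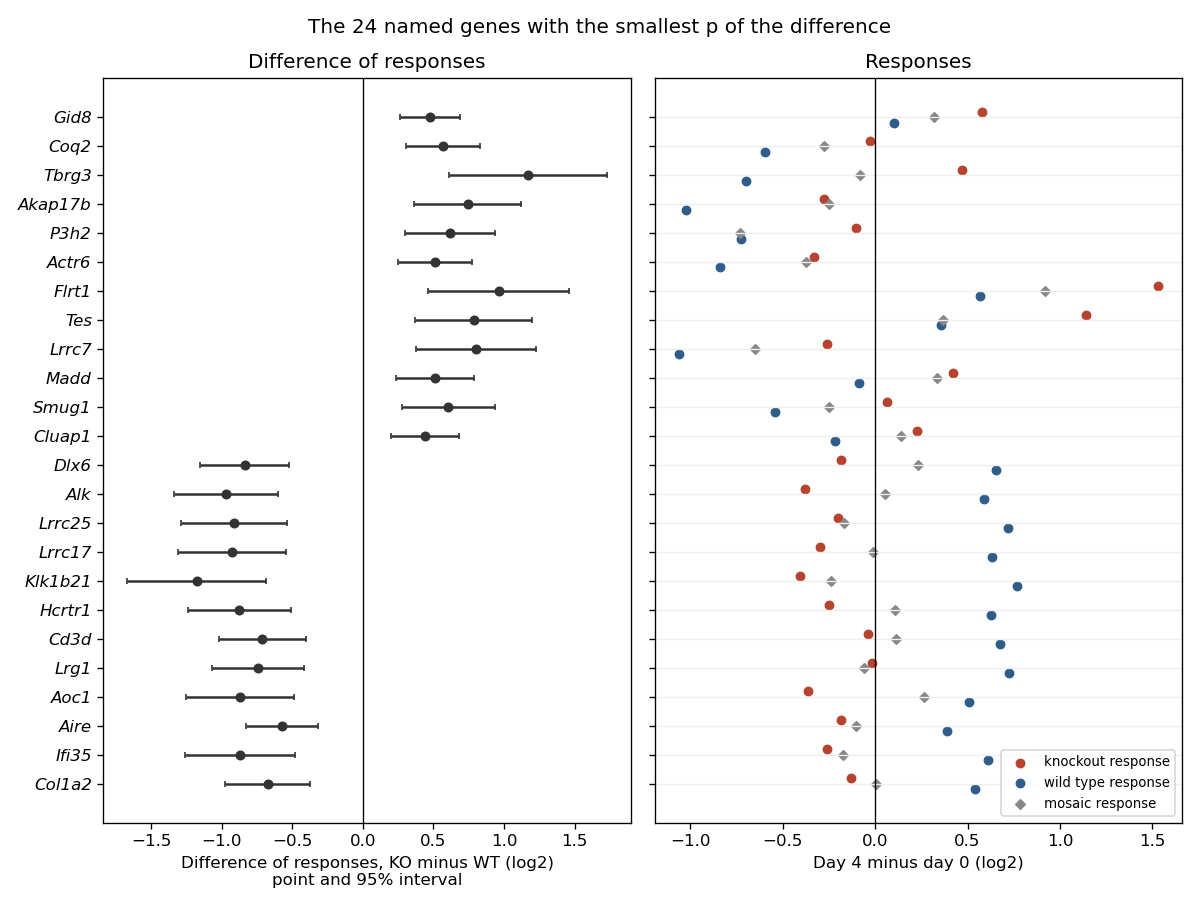
The 12 genes with the smallest p in each direction. The left panel gives the difference of responses, KO minus WT, with its 95% interval; the right panel gives the KO, WT and mosaic responses (day 4 minus day 0, log2). All 24 intervals leave out 0 because the genes were picked by p, none passed adjustment, and the mosaic points mostly lie between those of KO and WT.

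In the deposited values the direction of the difference moved with the signal level of the gene. Genes were divided into 10 equal bins by mean signal. The median difference of responses was -0.15, -0.15, -0.16 and -0.11 in the 4 dimmest bins and 0.09, 0.10, 0.09 and 0.07 in the 4 brightest. The median WT response was 0.18 to 0.19 in those dim bins and -0.07 to -0.04 in those bright ones, while the median KO response stayed within 0.00 to 0.04 in all 10. Of the 1087 genes with an unadjusted p under 0.05 and a KO response below WT, 91.3% lay in the dimmer 5 bins. Of the 722 with a KO response above WT, 74.8% lay in the brighter 5.

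The arrays moved with this. The upper quartile of log2 signal over all probe sets was 6.65 to 6.71 in KO at day 4, 6.69 to 6.71 in KO at day 0, 6.59 to 6.63 in WT at day 4 and 6.71 to 6.73 in WT at day 0, so every WT day 4 array had a lower upper quartile than any array of the other 3 groups. Quantile normalization left medians of -0.11 to 0.01 over the bins, and cyclic loess normalization left -0.04 to 0.04. With an unadjusted p under 0.05, 996 genes had the KO response below and 436 above after quantile normalization, and 685 below and 598 above after cyclic loess. Of the genes below, 79.1% lay in the dimmer 5 bins after quantile normalization and 75.6% after cyclic loess, against 91.3% as deposited. Of the genes above, 46.1% lay in the brighter 5 bins after quantile normalization and 39.1% after cyclic loess, against 74.8% as deposited, so the excess of genes above in bright bins was not kept under either. The 12 genes named with a KO response below WT all lay in the dimmer 5 bins. The part that the signal distribution of the arrays plays in these values was not tested gene by gene.

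**Figure D4:**
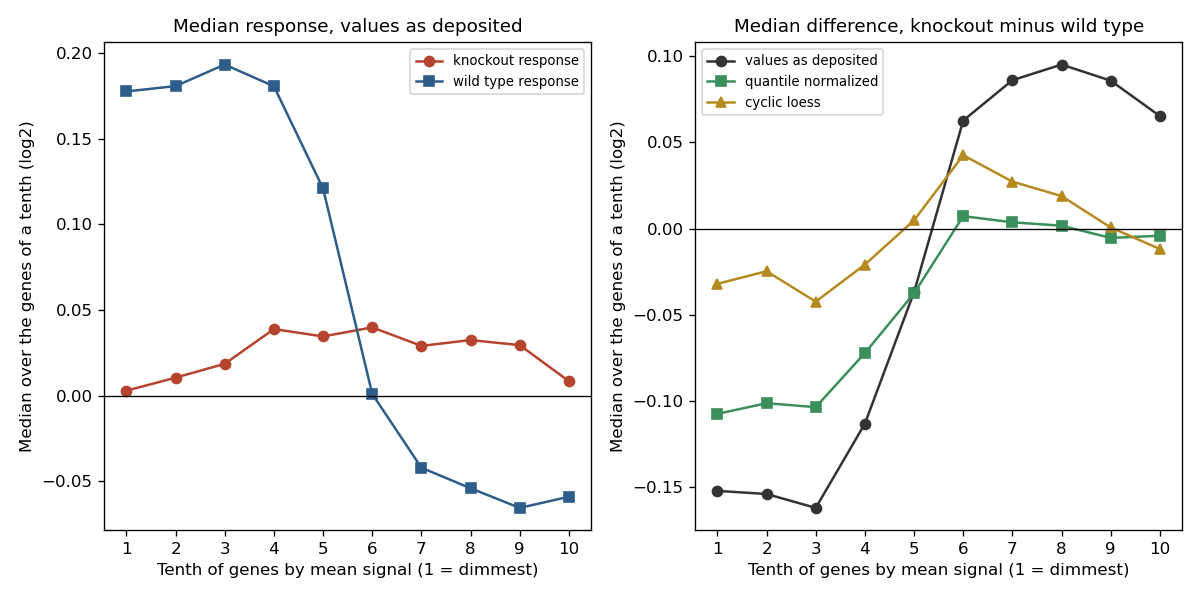
Median over the genes of each of 10 bins of mean signal, from the dimmest (1) to the brightest (10). The left panel gives the KO and WT responses in the deposited values; the right panel gives the difference of responses as deposited, after quantile normalization and after cyclic loess. The WT response steps down between bins 5 and 7, the KO response does not, and both normalizations shrink the resulting slope of the difference.

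Neuronal lineage genes were read against this background. The Dlx genes encode homeobox factors of interneuron precursors. Dlx5, the neighbour of Dlx6, rose by 0.96 in KO and by 1.02 in WT (difference -0.06, 95% interval -0.76 to 0.64), and Dlx2 rose by 0.52 in KO and by 0.58 in WT (difference -0.06, 95% interval -0.42 to 0.30). Dlx6os1, the antisense transcript of the same locus, was looked at after the values of Dlx6 were seen. Its response was 0.13 in KO and 0.84 in WT (difference -0.71, 95% interval -1.23 to -0.18), and whether the probe sets of the locus tell its strands apart was not tested. Nhlh1, a basic helix-loop-helix factor of newly born neurons, read 3.78, 3.76 and 3.94 in KO at day 4, 4.17, 3.61 and 4.30 in KO at day 0, 4.70, 4.50 and 4.67 in WT at day 4, and 3.75, 3.79 and 3.67 in WT at day 0. WT at day 4 was again the group that stood apart. Nhlh1 rose by 0.89 in WT, its KO response was -0.19, and the difference was -1.08 (95% interval -1.61 to -0.55, limma adjusted p = 0.250). Dcx, the microtubule protein of migrating neuroblasts, had responses of 1.94 in KO and 1.74 in WT. Of 20 neuroblast and intermediate progenitor genes tested, 5 rose and 3 fell in KO, 7 rose and 4 fell in WT, none was called in the difference, and the median difference was -0.01. Dlx6, Nhlh1 and Dlx6os1 lay between the 10.7th and the 24.1st percentile of mean signal, whereas Dlx2 lay at the 55.5th and Dlx5 at the 27.3rd.

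Of 28 neuron genes tested, 19 rose in KO, and 18 rose and 1 fell in WT. The median difference was 0.11 and stayed between 0.06 and 0.20 under the alternatives tried. The median was 0.09 for all genes of the bin that holds the median signal of the list. The difference was above 0 for 21 of 28. The share below 0 was 25% in the list and 30.5% in that bin, both in the deposited values. After quantile normalization the median was 0.07 in the list and 0.004 in that bin. After cyclic loess it was 0.09 in the list and 0.03 in the bin. How the list stood against genes of like signal thus depended on the normalization, and it was not tested. Elavl3, whose product binds RNA in neurons, rose by 2.19 in KO and by 2.07 in WT. Kif5c, a neuronal kinesin, rose by 1.71 in KO and by 1.26 in WT (difference 0.45, 95% interval -0.02 to 0.92). Miat, a long noncoding RNA of neurons, had the smallest p of the list, with a difference of 0.54 (unadjusted p = 0.0311, limma adjusted p = 0.470). Averaged over the 28 genes, log2 signal on the 3 arrays of a group ran from 7.18 to 7.57 in KO at day 4, 6.68 to 6.77 in KO at day 0, 7.23 to 7.27 in WT at day 4 and 6.73 to 6.76 in WT at day 0, so the genotypes overlapped at both days. Of 26 synapse genes, 15 rose in KO, and 15 rose and 1 fell in WT, with a median difference of 0.10. Nlgn1, a postsynaptic adhesion protein, fell by 0.47 in WT against a KO response of -0.13.

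Most cell cycle genes fell in both genotypes. Of 29 tested, 25 fell in both genotypes, and the estimated difference was below 0 for 25 (86.2%). The share below 0 was 48.7% over all genes tested and 30.5% in the bin that holds the median signal of the list. The median response was -2.24 in KO and -1.90 in WT, and the median difference was -0.26, against 0.01 over all genes tested and 0.09 in the bin that holds the median signal of the list. Under the alternatives tried it lay between -0.34 and -0.10. It was -0.10 without KO day 4 replicate 1 and -0.14 without WT day 4 replicate 3. No member was called. Cdc20, an activator of the anaphase-promoting complex, read 6.29, 6.63 and 6.92 in KO at day 4, 8.92, 8.83 and 8.79 in KO at day 0, 6.69, 7.0 and 7.17 in WT at day 4, and 8.55, 8.63 and 8.70 in WT at day 0. The genotypes overlapped at day 4, and KO lay above WT at day 0. Cdc20 fell 4.69-fold in KO and 3.20-fold in WT, with a difference of -0.55 (95% interval -1.04 to -0.06, unadjusted p = 0.0297, limma adjusted p = 0.470). The kinetochore motor Cenpe fell by 2.97 in KO and by 2.48 in WT, and the proliferation marker Mki67 had a difference of -0.36 (95% interval -1.0 to 0.28). The replication factors Pcna and Mcm2 had differences of -0.01 and 0.01. Averaged over the 29 genes, log2 signal ran from 6.02 to 6.48 in KO at day 4, 8.09 to 8.27 in KO at day 0, 6.26 to 6.52 in WT at day 4 and 8.05 to 8.18 in WT at day 0. The genotypes overlapped at both days. Members of this list share their regulation and are not independent measurements.

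**Figure D5:**
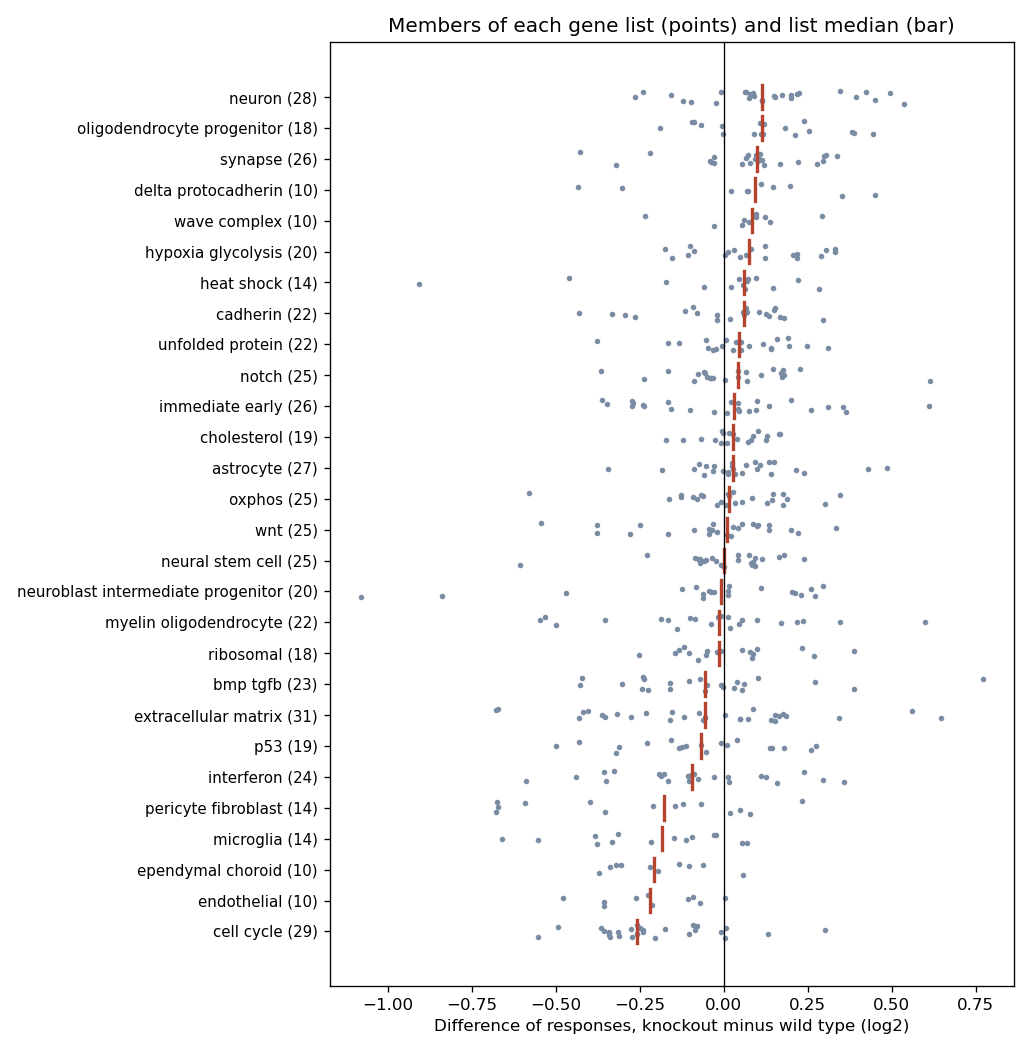
Difference of responses, KO minus WT, for the members of 28 gene lists, with the number of genes tested in brackets. Points are genes and bars are list medians, ordered by median in the deposited values, from neuron (0.11) at the top to cell cycle (-0.26) at the bottom; the order changes when single arrays are left out. No point passed the test over all genes.

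Of 25 neural stem cell genes, 4 rose and 12 fell in KO, 4 rose and 13 fell in WT, and the median difference was 0.00. Hes1, a Notch target that holds progenitors undifferentiated, fell by 2.38 in KO and by 2.56 in WT, and Hes5 fell by 1.87 in KO and by 1.91 in WT. Jag1, a Notch ligand, fell by 0.74 in WT against a KO response of -0.13 (difference 0.61, 95% interval 0.07 to 1.16, unadjusted p = 0.0303). Of 27 astrocyte genes, 16 rose and 4 fell in each genotype. The list median was 0.03, and Gfap, the astrocyte intermediate filament, fell by 1.20 in KO and by 1.68 in WT (difference 0.49, 95% interval -0.32 to 1.30). Of 18 oligodendrocyte progenitor genes, 12 rose and 1 fell in KO and 11 rose and 1 fell in WT, with a median difference of 0.11. Gpr17, a receptor of premyelinating oligodendrocytes, rose by 1.57 in KO and by 1.18 in WT. Of 19 cholesterol synthesis genes, 11 rose and 1 fell in KO and 12 rose and 1 fell in WT, and all 19 differences lay between -0.17 and 0.17 (median 0.03). Of 14 heat shock genes, 1 rose and 5 fell in KO and 1 rose and 6 fell in WT (median 0.06). The near-identical heat shock genes Hspa1a and Hspa1b, which an array may not separate, fell by 4.01 and 4.15 in KO and by 4.29 and 3.24 in WT, and the interval for Hspa1b reached from -2.07 to 0.25.

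No delta-protocadherin was called in the difference of responses. Of 10 members tested, Pcdh19 included, 5 rose in KO and 4 rose in WT, beside 15% of all genes tested in KO and 17.2% in WT. Pcdh8 had responses of 0.00 in KO and 0.43 in WT (difference -0.44, 95% interval -0.77 to -0.10), and Pcdh7 had responses of 0.51 in KO and 0.16 in WT (difference 0.35, 95% interval 0.05 to 0.65). Pcdh17 rose by 0.73 in KO and by 0.62 in WT, and Pcdh10 by 0.51 in KO and by 0.49 in WT. The WAVE complex drives actin branching and is bound by several delta-protocadherins. Of its 10 genes tested, 5 rose in both genotypes, beside 1920 of all 19016 genes tested. Among the 5 was Cyfip2, by 1.44 in KO and by 1.14 in WT, and the median difference of the list was 0.09.

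Of 22 unfolded protein response genes, 18 fell in KO and 19 in WT, among them the chaperone Hspa5 by 2.40 in KO and by 2.36 in WT (median difference of the list 0.04). Of 20 hypoxia and glycolysis genes, 2 rose and 15 fell in KO and 1 rose and 15 fell in WT, and the angiogenic factor Vegfa fell by 1.99 in KO and by 2.04 in WT (median 0.07). Of 31 extracellular matrix genes, 2 rose and 13 fell in KO and 4 rose and 12 fell in WT. The matrix glycoprotein Fbln2 fell by 3.85 in KO and by 3.93 in WT, and the list median was -0.06, with members from -0.68 to 0.65.

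For Notch genes 2 rose and 9 fell in KO and 3 rose and 12 fell in WT of 25 (median difference 0.04). For Wnt genes 6 rose and 8 fell in KO and 6 rose and 7 fell in WT of 25 (median 0.01), and the Wnt inhibitor Apcdd1 fell by 2.21 in KO and by 2.23 in WT. For BMP and TGF-beta genes 5 rose and 6 fell in KO and 5 rose and 5 fell in WT of 23 (median -0.05), and the BMP target Id3 fell by 1.49 in KO and by 1.42 in WT. Cadherins and catenins had 3 risen and 5 fallen in KO and 3 risen and 7 fallen in WT of 22 (median 0.06). Cdh11, a cadherin, rose by 1.26 in KO and by 1.19 in WT. Interferon genes had 1 risen and 8 fallen in KO and 2 risen and 6 fallen in WT of 24 (median -0.10), and Psmb8, an immunoproteasome subunit, rose by 0.44 in WT against a KO response of -0.15 (difference -0.59, unadjusted p = 0.00912). Genes of the p53 pathway had 1 risen and 9 fallen in KO and 2 risen and 11 fallen in WT of 19 (median -0.07), and the cell cycle inhibitor Cdkn1a fell by 1.61 in KO and by 1.38 in WT. Of 25 respiratory chain genes 2 rose and 1 fell in KO and 2 rose and 2 fell in WT (median 0.02), and of 18 ribosomal protein genes 1 rose and 10 fell in each genotype (median -0.01).

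Lists of cell types not meant to be present had low median signals and negative median differences. The median difference was -0.18 for 14 microglia genes, -0.22 for 10 endothelial genes, -0.18 for 14 pericyte and fibroblast genes and -0.21 for 10 ependymal and choroid plexus genes, with median signals between the 21.7th and the 36.8th percentile, where the medians of all genes were -0.16 to -0.11. In WT 4 microglia, 1 endothelial, 2 pericyte and fibroblast and 4 ependymal genes rose and 1 ependymal gene fell. In KO 1 pericyte gene rose and 1 microglia and 3 pericyte genes fell. Over the 48 genes, 2.08% rose in KO against 15% of all genes tested, and 22.9% rose in WT against 17.2%. The share that fell was 8.33% in KO against 12.4% of all genes, and 2.08% in WT against 16.3%. The shares over all genes include bright genes, whose median responses differed from those of dim genes. Shares for genes of like signal were not computed, so nothing about cell types is read from this contrast. Averaged over the microglia list, log2 signal ran from 4.72 to 4.81 in KO at day 4, 4.77 to 4.78 in KO at day 0, 4.80 to 4.94 in WT at day 4 and 4.60 to 4.70 in WT at day 0. For the pericyte and fibroblast list it ran from 5.19 to 5.37 in KO at day 4, 5.29 to 5.33 in KO at day 0, 5.44 to 5.54 in WT at day 4 and 5.20 to 5.27 in WT at day 0. The smallest p-values in these lists were those of Col1a2 and of Fcer1g, an Fc receptor chain of myeloid cells (difference -0.55, 95% interval -0.86 to -0.25, unadjusted p = 0.00151, limma adjusted p = 0.303). Col3a1, a fibrillar collagen, had a difference of -0.68 (95% interval -1.13 to -0.22) and Tagln, an actin-binding protein of smooth muscle, -0.68 (95% interval -1.08 to -0.27). Of the 14 pericyte and fibroblast differences, 10 lay below 0 and 4 above. Pdgfrb had the highest, 0.23, and reached the 85.7th percentile of an array. Its mean was 7.58 in KO at day 4, 5.28 in KO at day 0, 7.48 in WT at day 4 and 5.42 in WT at day 0. The array values carry no detection call and no true 0, and the part of any such cells in these differences was not tested.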

How the data were processed

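Values came from 18 arrays of RNA from neurosphere cultures, 3 per group. The deposited file gives 1 value per array for each of 41345 probe sets, and their range (0.722 to 13.97) is that of log2 signals. How the authors normalized and background-corrected them, and in which log base, is not given in the sources used here, and log2 fold changes assume base 2. Probe sets with 1 gene symbol in the platform annotation were used (23521, against 1814 with several and 16010 with none listed), and where a gene had several, the one with the highest 18-array mean stood for it, which gave 22180 genes. Genes had to exceed the 25th percentile on 3 or more arrays, which left 19016 and dropped 3164. A mean per group was fitted to all 18 arrays with limma 3.58.1 in R 4.3.3 (lmFit and eBayes, 12 residual and 4.36 prior degrees of freedom), so the mosaic arrays share in the estimate of spread; Pcdh19 is also given from the 12 KO and WT arrays alone. Contrasts were tested two-sided with Benjamini-Hochberg adjustment over 19016 genes. The procedure was run on simulated data with independent noise around group means. Those data lacked the trend of the difference with signal level, so the run says nothing about that trend. Errors are standard errors and intervals are 95% intervals from this fit.

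The genes named are Pcdh19, the 12 smallest p-values of the difference in each direction because none was called, up to 6 genes called in both genotypes with opposite signs, and per list up to 4 members with the smallest p and 3 with the largest WT response. The 12 exclude small RNA, vomeronasal and olfactory genes and predicted or clone names. Gm21370, AY702102, 1810064F22Rik, Dlx6os1, Mki67, Pcna, Mcm2, Dlx2 and markers used to check the cell type were added after their values were seen. The members and the 29 gene lists were chosen with earlier results of these data known. The number of arrays, 3 per group, limits the precision. Promoter sequences came from RefSeq (GRCm38.p6).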

Additional observations from a re-analysis of the deposited data

How the results depend on the processing

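The count of 0 genes called in the difference of responses was 1 after quantile normalization (Gm21370, limma adjusted p = 0.0369), after cyclic loess normalization (Gm21370, 0.0443), with a filter at the 50th percentile (Gm21370, 0.0299), at an adjusted p under 0.1 (Gm21370, 0.066) and with a replicate block within genotype (Klk1b21, 0.0388). With the replicate number as a block it was 0 (smallest adjusted p = 0.0603). Same-numbered arrays of the 2 days correlated at 0.060 to 0.164 in KO and 0.044 to 0.079 in WT after removal of group means. The best correlation with another number was lower each time, -0.074 to 0.025 in KO and -0.022 to -0.009 in WT. The main fit did not pair the samples by number, so any effect shared by a number stays in its spread. Each of 9 day 4 arrays, mosaic included, correlated best with the day 0 array of its own number, a hint from the data and not from the design. Leaving out each of the 12 arrays gave 0 to 2 calls. WT response calls were 4046 at an adjusted p under 0.01, against 6386, and 5038 to 6488 with an array left out. KO calls were 4237 to 5200 with an array left out, shared calls 3392 to 3906, the slope 0.871 to 0.929 and the Pcdh19 difference -0.01 to 0.15. With every probe set on the array, named or not (like cyclic loess, chosen after seeing the data), 33403 were tested and 0 were called (3232 at an unadjusted p under 0.05). For the 24 named genes, picked by p, adjusted p under the alternatives ran from 0.0164 to 0.565. Of 667 list medians under alternatives, 13 moved by more than the spread between differences of single same-numbered arrays. Some alternatives, among them the 12 arrays alone and the replicate blocks, cannot change these medians. The low count was therefore partly fixed in advance, and nothing is read from it. The medians of the cell cycle, neuron, oligodendrocyte progenitor, synapse, delta-protocadherin, WAVE complex, interferon, microglia, endothelial, pericyte and ependymal lists kept their sign under every alternative, and those of the other lists changed it under at least 1. A kept sign could still come close to 0. After quantile normalization the median was 0.005 for the WAVE complex, 0.008 for delta-protocadherins and 0.02 for synapse genes. After cyclic loess it was 0.003 for the WAVE complex. The cause of these changes was not tested. Without scanner files there is no signal over background, so dim genes have no detection limit here.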
